A study of Caenorhabditis elegans with 4 samples.

Results

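The nuclear hormone receptor genes of the nematode Caenorhabditis elegans described here are those whose symbol is nhr- followed by a number. They were found in the platform's gene table as probe sets assigned to a single gene, and they made up 293 of the 22625 probe sets on each array, for 254 of the 17118 genes read. The WBcel235 gene table holds 283 genes of that name. A further 14 probe sets name an nhr gene together with a second gene entry and were left out of the counts, among them the only probe set that names nhr-62. Of the 254 genes, 33 had several probe sets (up to 4), and the one with the highest mean stands for the gene. Among the 293 probe sets, 43 carry the suffix _s_ or _x_, which marks probes shared between transcripts.

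Nuclear hormone receptors are transcription factors that bind DNA through a zinc-finger domain, and many of them change their activity when a small fat-soluble molecule occupies their ligand-binding domain. C. elegans has far more of these genes than insects or mammals, most of them derived from an ancestor related to vertebrate HNF4. In worms such receptors govern fat metabolism, the response to fasting, molting and the handling of foreign compounds.

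Wild-type young adult hermaphrodites (3 days old) had been exposed for 24 h to the plastics monomer bisphenol A (BPA), to the plasticizer di(2-ethylhexyl) phthalate (DEHP), or to NP, read here as nonylphenol. Untreated worms were the control, and RNA was read on one-colour Affymetrix C. elegans arrays. There was 1 array for each of BPA, DEHP, NP and the control, so there are no replicates, no test was made, and every difference below describes these 4 arrays only. The dose of a chemical was 1/100 of the 24 h LC50 measured for it (the concentration lethal to the median worm), so concentrations are not matched between chemicals. Exposed worms were kept at 20 °C without food in K-medium, a salt solution, after growth on E. coli OP50. Of the control the labels say only that it was untreated, giving neither its medium nor its feeding, so exposure, medium and food cannot be told apart in any comparison with it.

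The RNA came from whole worms, in which fewer cells of a type and less RNA per cell cannot be told apart. The adult markers vit-2, vit-6 and col-19 were detected on all 4 arrays. Marker sums of several tissues differed between arrays. Over 7 neuronal markers, deposited intensities added up to 6394 on the BPA, 4278 on the DEHP and 3984 on the NP array, against 7623 on the control array, and none of the 7 was under the floor on every array. The sum over 6 intestinal markers was 35490, 28673 and 25387 for the exposed arrays in the same order, against 37746 for the control. The sum over 6 body muscle markers was 27788, 23956 and 17854, against 30161. For 6 epidermal markers it was 8862, 9381 and 6072, against 8243. For 6 oocyte markers it was higher on each exposed array, at 42513, 42976 and 41260, against 35537. No marker of these 4 lists was under the floor on every array. Such sums follow the brightest markers, and markers of a list could differ in direction. In the intestinal list asp-1 alone gave 25112 of the control sum. There ges-1 read 513 for BPA and 671 for DEHP, against 463 for the control, while ifb-2, act-5 and vha-6 were below the control on each exposed array. In the epidermal list, on the DEHP array, col-19 read 4406, against 3648 for the control, but vha-5 read 393, against 861. The ratio of 3-prime to 5-prime actin control probe sets, a gauge of RNA integrity, stood at 1.22 on the BPA, 1.37 on the DEHP and 1.88 on the NP array, against 1.19 on the control array. For Gapdh it was 0.83, 0.93 and 1.19, against 0.95, and for catalase 1.44, 1.82 and 3.38, against 1.63. For gly14 it was 0.016, 0.097 and 0.47, against 0.24, and for ubiquitin 8.28, 8.01 and 8.98, against 6.66. Only the NP ratio was above that of the control for every one of these transcripts. The part of tissue share and RNA integrity in the receptor values was not tested.

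Most receptor genes gave little signal. An array's detection level was set at its median probe set, a deposited intensity of 140 for BPA, 127 for DEHP, 109 for NP and 141 for the control. Of the 254 receptor genes, 93 (36.6%) reached it on at least 1 array and 57 on all 4. The other 161 genes did not reach it on any array, and 48 of them lay under a floor at the pooled 25th percentile on every array. Counted by probe set, 179 of 293 were below the detection level on every array and 54 of those were under the floor. Over all genes on the arrays, 54.04% were detected on at least 1 array and 15.3% were under the floor on all 4. Chemoreceptor genes, each used by few neurons, served as a gauge of that level: 5 of 811 reached it on any array. The number of receptor genes detected came to 67 on the BPA, 73 on the DEHP and 77 on the NP array, against 80 on the control array.

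Detection differed by genome position and gene number. Chromosome V holds 164 of the 254 genes, and 28.0% of these were detected on some array, against 38.2% of all genes on that chromosome. On chromosome X, 15 of 23 receptor genes (65.2%) were detected, against 57.7% of all genes there. On chromosome IV it was 16 of 28 (57.1%), near the 57.2% of all genes there. Of 116 receptor genes that lie directly beside another nhr gene, 31 (26.7%) were detected, against 61 of 127 protein-coding receptor genes that do not (48.0%). Genes numbered up to 100 were detected in 59 of 90 cases, and those with higher numbers in 34 of 164. Of 11 pseudogenes in the set, 1 was detected.

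**Figure D1:**
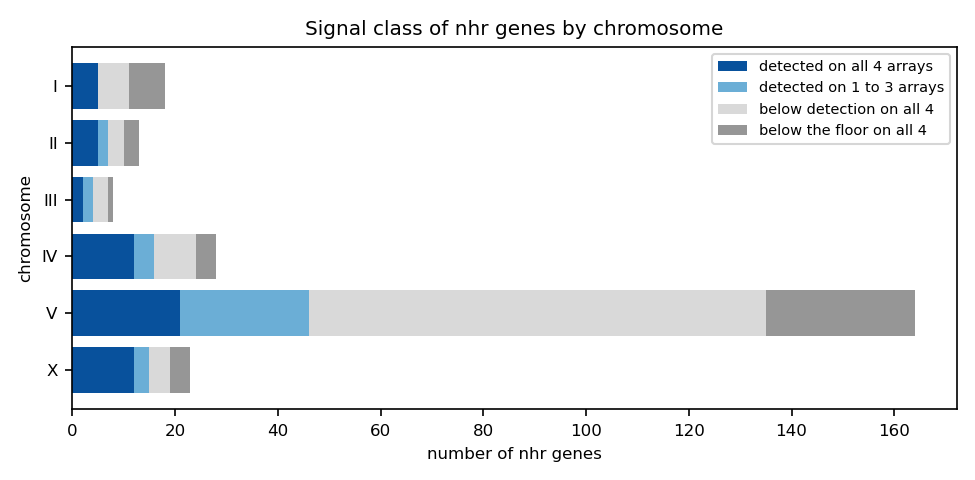
Number of nhr genes on each chromosome, split by signal class over the 4 arrays (detected on all 4, on 1 to 3, below the detection level on all 4, or below the floor on all 4). Chromosome V holds 164 genes, of which 46 were detected on some array.

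Changes are log2 differences between 2 arrays relative to the median detected gene of that comparison. They differ from the plain log2 ratio of the deposited intensities by a constant per comparison, from -0.020 (NP minus BPA) to 0.0098 (NP minus DEHP), unless a value is under the floor. A gene entered a comparison if the brighter of the 2 arrays reached the detection level, and a change of at least 2-fold was counted. A gene that enters through its brighter array alone has to differ, so counts are also given for genes whose mean over the 4 arrays reached the level.

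Detected receptor genes lay below the median gene in each comparison with the control. These 3 comparisons share the control array and are not independent. On the BPA array the median of 83 detected receptor genes was -0.19, and 55 of the 83 lay below 0. On the DEHP array the median of 87 was -0.42, with 64 below 0. On the NP array the median of 89 was -0.46, with 73 below 0. The same medians over all detected genes are 0 by construction. Over the 72 receptor genes with a sufficient mean over the 4 arrays, the medians were -0.096, -0.31 and -0.46.

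On the BPA array 3 detected receptor genes were at least 2-fold lower and 0 at least 2-fold higher, against a background of 1.41% lower and 1.3% higher over 8819 detected genes. With the filter on the mean 1 of 72 was lower, against 0.877% of 8439 genes. On the DEHP array 8 were lower and 2 higher of 87, where 5.72% of 8915 detected genes were lower and 2.82% higher. On the NP array 15 were lower and 0 higher of 89, where 8.42% of 8940 genes were lower and 1.92% higher. With the filter on the mean, 6 of 72 were lower for DEHP, against 4.41% of genes, and 11 of 72 for NP, against 7.16%. In both directions together the NP share was 16.9% of receptor genes, against 10.3% of all genes. That excess depends on the processing, and it stayed with values as deposited (17.8%, against 10.7%). After quantile normalization or loess, which remove trends with brightness, the NP split was 5 lower and 1 higher (nhr-58), or 6.74% of receptor genes, against 8.52% (quantile) and 8.86% (loess) of all genes. It was also 5 and 1 with arrays aligned on their common median alone, where 12.1% of all genes passed 2-fold in either direction. That setting adds 0.38 to every NP change, which by itself takes genes out of the lower count. It therefore cannot decide whether the excess holds. Lower genes alone were not set against a background under these alternatives.

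Receptor genes are dim, and dim genes as a class were lower on the NP array. Among genes whose brighter array lay between the median and the 75th percentile, 75 receptor genes had a median NP change of -0.47, against -0.24 for all 3984 such genes. In that range 14 receptor genes (18.7%) and 13.6% of all genes were at least 2-fold lower on the NP array. In the same range the medians were -0.48 for 74 receptor genes and -0.086 for all genes on the DEHP array, where 7 of the 74 and 8.85% of all genes were 2-fold lower. On the BPA array they were -0.23 for 70 receptor genes and -0.0086 for all genes, with 2 of the 70 and 2.12% of all genes 2-fold lower. At most 14 receptor genes reached the 75th percentile in a comparison. Their medians were 0.048 for BPA, -0.15 for DEHP and -0.37 for NP, beside 0.0045, 0.045 and 0.14 for all genes that bright.

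NP changes also varied with gene span (exons and introns together). When detected genes were split into 3 equal groups by span, 38 receptor genes fell in the longest, and 11 of them were at least 2-fold lower on the NP array (median -0.55), against 11.1% of all genes that long (median -0.18). In the middle group 4 of 43 receptor genes were 2-fold lower, against 7.29% of all genes. In the shortest it was 0 of 8, against 6.79% of all genes, and 8 genes are too few to differ visibly from that share. The median span of detected receptor genes was 3214 bases, and that of all detected genes 2577. With the trend of change with span subtracted (an alternative added once the data had been seen), 8 of 89 receptor genes (8.99%) were 2-fold lower on the NP array, none higher, and 9.52% of all genes passed 2-fold in either direction. The receptor median was then -0.38.

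**Figure D2:**
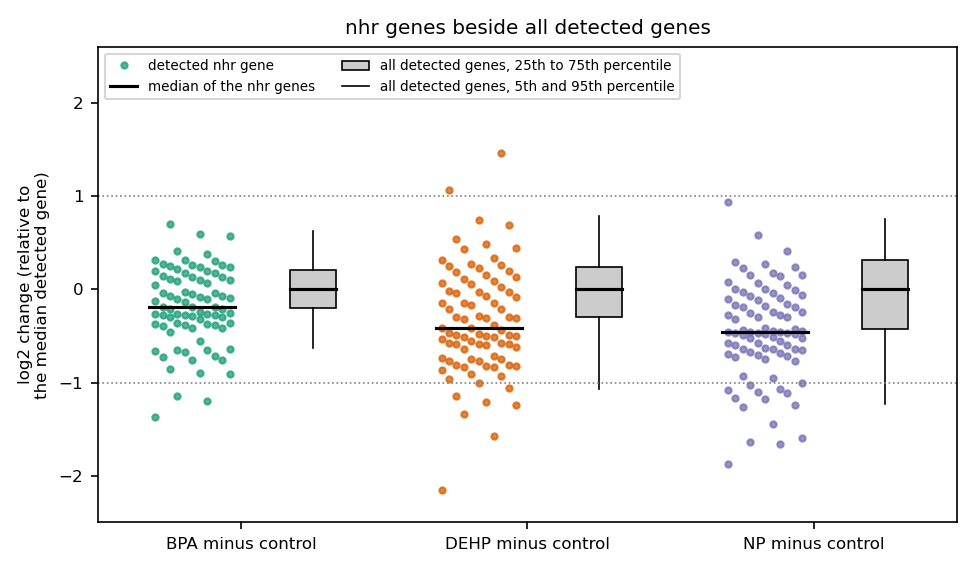
Log2 change of each detected nhr gene (points, with a line at their median) beside all detected genes (boxes from the 25th to the 75th percentile, lines to the 5th and 95th) for BPA, DEHP and NP minus the control, dotted lines marking 2-fold. The receptor medians lie at -0.19, -0.42 and -0.46, below those of all genes at 0.

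Of the 57 receptor genes detected on all 4 arrays, the control array gave the highest deposited intensity for 29 (50.9%), against 22.8% of the 7704 genes detected on all 4. The NP array gave the lowest for 29 of the 57, against 32.4% of all such genes. On deposited values the median probe set read 141 on the control array and 109 on the NP array. The 7704 genes were not matched to the dimmer receptor genes, and the part of brightness in these rankings was not tested. Of the 57, 43 (75.4%) differed by less than 2-fold between their highest and lowest array, as did 85.9% of all genes.

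The receptor gene nhr-97, for which no role is given here, was lower on each exposed array. It read 333 for BPA, 343 for DEHP and 236 for NP, against 863 for the control. The changes of -1.37, -1.34 and -1.87 set a single high control value against 3 exposed values that lay within 1.5 times of each other. Its other probe set read 209, 166 and 73.0, against 278 in the control, so that its changes were -0.41, -0.75 and -1.94. The probe sets thus differed most for BPA, where averaging them took the gene under 2-fold (-0.88).

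Another gene that was lower on several arrays was nhr-171, on chromosome V, with 84.97 for BPA, 44.2 for DEHP and 166 for NP, against 196 for the control. Its changes were -1.20, -2.15 and -0.25, the DEHP value being the lowest of any detected receptor gene in the 3 comparisons with the control. The BPA and DEHP values lay under the detection level, which leaves the size of those changes uncertain. For nhr-101 the BPA, DEHP and NP arrays read 266, 167 and 157, against 495 on the control array. This gave changes of -0.89, -1.58 and -1.66, with all 4 values above the detection level.

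The remaining gene past 2-fold on the BPA array was nhr-107, with 66.4 against 147 in the control (-1.14), the control value just above the detection level. Its probe set is of the _s_ type.

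Besides nhr-171, nhr-101 and nhr-97, the lower genes on the DEHP array were nhr-105 (159 against 373 in the control, -1.24), nhr-95 (79.4 against 182, -1.21), nhr-153 (105 against 232, -1.15), nhr-61 (164 against 342, -1.06) and nhr-116 (90.9 against 182, -1.01). The DEHP values of nhr-95, nhr-153 and nhr-116 were under the detection level. The last 3 of these genes passed 2-fold by little and did not pass it when arrays were aligned on their common median alone (-0.99, -0.90 and -0.85).

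Higher on the DEHP array were nhr-114 and nhr-43. The intensity of nhr-43 was 196 on the DEHP array, 152 on the BPA array and 105 on the NP array, against 93.4 on the control array. Its DEHP change was 1.06 and its BPA change 0.70, from a control value under the detection level.

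On the NP array the lowest genes after nhr-97 were nhr-101 and nhr-14. The receptor NHR-14 is known for coupling iron uptake in the intestine to innate immunity. Its transcript read 469 for BPA, 401 for DEHP and 160 for NP, against 495 for the control. Only the NP array stood apart, with a change of -1.63 beside -0.074 for BPA and -0.31 for DEHP. The gene nhr-35 read 363, 271 and 174, against 473, with changes of -0.38, -0.81 and -1.45.

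The other NP genes past 2-fold ran from nhr-121 (-1.27) and nhr-120 (-1.24) through nhr-48 (-1.18), nhr-19 (-1.17), nhr-193 (-1.11), nhr-104 (-1.096), nhr-21 (-1.08) and nhr-119 (-1.07) to nhr-40 (-1.03) and nhr-5 (-1.005). The product of nhr-48 belongs to the subfamily of DAF-12 and NHR-8, related to vertebrate vitamin D and pregnane receptors, and NHR-40 acts in embryonic muscle development. The NP values of nhr-121, nhr-120, nhr-193, nhr-104, nhr-119 and nhr-5 did not reach the detection level, which leaves those changes uncertain in size. Every one of these 10 genes was under 2-fold after quantile normalization, after loess, and with arrays aligned on their common median alone. The 5 NP genes that stayed past 2-fold under each alternative that gave them a value were nhr-97, nhr-101, nhr-14, nhr-114 and nhr-35.

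**Figure D3:**
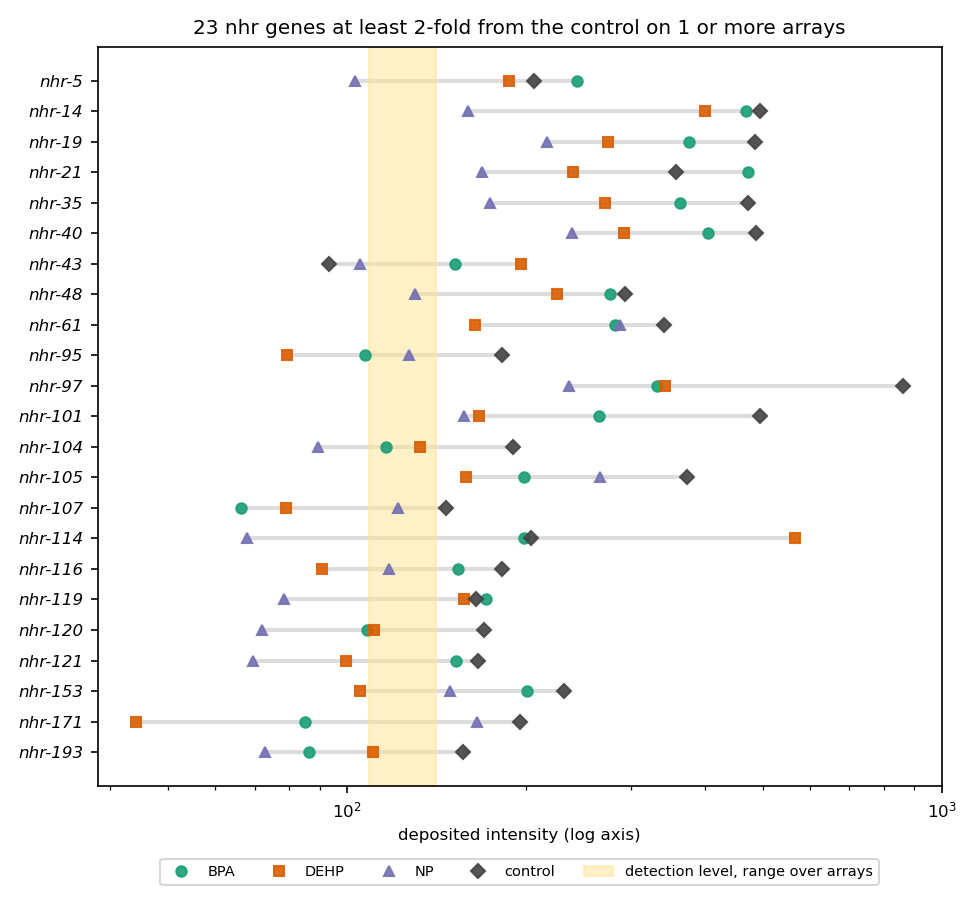
Deposited intensity (log axis) of the 23 nhr genes past 2-fold on any exposed array, with 1 marker per array and a band for the range of the arrays' detection levels (109 to 141). The control marker is the highest for most genes, while nhr-43 and nhr-114 reach their highest value on the DEHP array.

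Among receptors of lipid metabolism, no detected gene was 2-fold from the control. Only 5 were detected for BPA, 4 for DEHP and 4 for NP. Of all detected genes, 2.71%, 8.54% and 10.3% passed 2-fold, so that count says little of these receptors. The transcript of nhr-49, which encodes the main regulator of fatty acid desaturation and of the fasting response, read 2422 for BPA, 2682 for DEHP and 2807 for NP, against 2280 for the control. The changes of 0.09, 0.23 and 0.30 had the opposite sign on its other probe set (-0.23, -0.33 and -0.40), so that no direction can be given. For nhr-66, whose product acts with NHR-49 on sphingolipid genes, the brighter probe set read 940, 1208 and 1537, against 1150, and its changes were -0.29, 0.064 and 0.41. The other probe set read 0.092, 0.057 and -0.29.

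The gene nhr-80, whose product promotes fatty acid desaturase expression, read 163 for BPA, 95.3 for DEHP and 77.7 for NP, against 135 for the control. It was detected on the BPA array only. The gene nhr-13, which acts beside nhr-80, differed from the control by 0.32, 0.095 and -0.10, and the HNF4-related gene nhr-64 by -0.13, -0.81 and -0.46. The only probe set naming nhr-62, a mediator of dietary restriction, read 211, 206 and 238, against 146, but is listed under a pair of gene entries. The gene nhr-76, which links serotonin signals to fat use, was not detected on any array.

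The genes listed as dependent on NHR-49 differed far more between arrays than nhr-49 itself. Of 9 such genes, 6 passed 2-fold upward for BPA and 0 downward. For DEHP 2 lay 2-fold above the control and 2 below, and for NP 0 above and 5 below. The shares of all detected genes past 2-fold upward were 1.3% (BPA), 2.82% (DEHP) and 1.92% (NP). Downward they were 1.41%, 5.72% and 8.42%. The desaturase gene fat-5 read 447 for BPA, 388 for DEHP and 64.1 for NP, against 159 for the control. The flavin-containing monooxygenase gene fmo-2 read 1050, 60.1 and 88.8, against 378. The glyoxylate cycle gene icl-1, whose probe set carries the suffix _s_, had 16799, 10294 and 9352, against 7051. Members on the other side of the control for BPA were fat-7 (-0.41) and cpt-5 (-0.33). Their DEHP changes were -0.56 and -1.79, and their NP changes 0.52 and -1.14. The receptor transcript thus varied by less than 2-fold where several of the dependent transcripts varied by more than 4-fold.

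The widest range over the 4 arrays among the 93 detected receptor genes was that of nhr-114, which encodes an HNF4-related receptor of the intestine and germ line that protects germ cells when tryptophan or vitamin B12 is scarce and promotes methionine cycle genes. It read 198 for BPA, 567 for DEHP and 68.1 for NP, against 204 for the control. The BPA value lay on the control (-0.041), the DEHP value was 2.76-fold higher (1.46) and the NP value 3.01-fold lower (-1.59), with the NP value under the detection level. A single probe set reads the gene, and it is not of the _s_ or _x_ type.

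In the methionine and S-adenosylmethionine (SAM) cycle, sams-1 and metr-1 were likewise highest on the DEHP array and lowest on the NP array. The SAM synthetase gene sams-1 read 3453 for BPA, 6183 for DEHP and 1377 for NP, against 3485 for the control, with changes of -0.011, 0.82 and -1.34. The methionine synthase gene metr-1 read 1874, 2669 and 1153, against 1737. Over the 7 genes of that list the medians were 0.018 for BPA, 0.40 for DEHP and -0.56 for NP. No gene of the list was 2-fold higher on any exposed array, and sams-1 on the NP array was the only one 2-fold lower. The methyltransferase gene pmt-1 lay below the control on both, at -0.64 for DEHP and -0.55 for NP.

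The receptors NHR-10 and NHR-68 switch on the propionate shunt, the route that breaks down propionate when vitamin B12 is short. Transcripts of nhr-68 read 771 for BPA, 879 for DEHP and 534 for NP, against 723 for the control, with changes of 0.096, 0.28 and -0.44. Those of nhr-10 read 381, 397 and 575, against 596, with changes of -0.64, -0.59 and -0.057. Its second probe set gave -0.31, -0.83 and -0.64, also below 0.

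The first enzyme gene of the shunt, acdh-1, read 5932 for BPA, 10813 for DEHP and 2315 for NP, against 5167 for the control. It was the only gene of 5 in that list past 2-fold, at 1.06 for DEHP and -1.16 for NP. The list medians were 0.20, 0.68 and -0.50. The DEHP and NP arrays therefore stood on opposite sides of the control for nhr-114, acdh-1 and sams-1, each a single measurement per chemical.

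**Figure D4:**
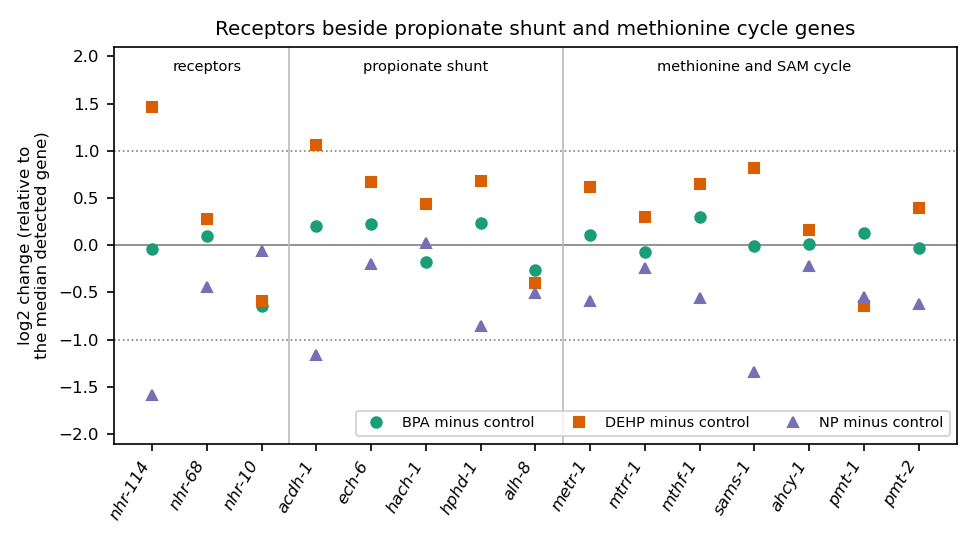
Log2 change from the control for nhr-114, nhr-68 and nhr-10 and for the genes of the propionate shunt and of the methionine and SAM cycle, with 1 marker for each of BPA, DEHP and NP and dotted lines at 2-fold. For nhr-114, acdh-1 and sams-1 the DEHP marker lies above 0 and the NP marker below -1.

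Receptors that respond to foreign compounds, infection or stress were within 2-fold of the control on every exposed array where they were detected. With 4 detected genes and 2.71% (BPA), 8.54% (DEHP) and 10.3% (NP) of all detected genes past 2-fold, that says little of these receptors. The gene nhr-8, needed for resistance to plant toxins and drugs and for cholesterol balance, read 397 for BPA, 614 for DEHP and 285 for NP, against 419 for the control. Its changes were -0.074, 0.54 and -0.56. The gene nhr-86, whose product senses a bacterial toxin and drives innate immune genes, read 739, 923 and 695, against 673, from a probe set of the _s_ type. The gene nhr-45, linked to detoxification under mitochondrial stress, differed from the control by -0.65, -0.48 and -0.42, and the hypoxia-induced gene nhr-57 by 0.31, -0.49 and -0.11.

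The gene nhr-176, whose product induces a cytochrome P450 on exposure to a fungicide, was not detected on any array, nor was that P450 gene, cyp-35D1. The immune gene irg-4, known to depend on NHR-86, read 263 for BPA, 221 for DEHP and 472 for NP, against 990 for the control. Its changes were -1.91, -2.17 and -1.07, while nhr-86 itself differed from the control by 0.14, 0.45 and 0.042. The other immune gene of that list, irg-5, lay on the opposite side for DEHP and NP, with 229 and 192, against 120 for the control (0.93 and 0.68). On the BPA array irg-5 read 43.1, and it was not detected there or on the control array.

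Of 9 receptor genes of development and molting, 5 were detected and 4 (nhr-41, nhr-85, nhr-6 and nhr-67) were not. Transcripts of nhr-23, the worm ROR orthologue that drives the molting cycle, read 419, 455 and 549 for BPA, DEHP and NP, against 365, with changes of 0.20, 0.31 and 0.58 from a probe set of the _s_ type. A second _s_ probe set, below the detection level on every array, read 52.1, 97.1 and 72.7, against 138, so the direction is unsure. The gene nhr-25, orthologue of Ftz-F1 and active in the epidermis and gonad, differed from the control by 0.26, -0.41 and -0.45. Its second probe set, of the _s_ type, gave 0.73, 0.65 and -0.93.

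The gene nhr-40 read 405, 292 and 240, against 488, and both of its probe sets gave an NP change near -1 (-1.03 and -1.02). The GCNF-related gene nhr-91 differed from the control by 0.13, -0.033 and -0.46, and nhr-2, expressed early in the embryo, by 0.15, 0.49 and 0.24. The 3 detected probe sets of nhr-2 disagreed, with changes from -0.93 to 0.51 for BPA, from 0.19 to 0.84 for DEHP and from -0.16 to 0.63 for NP. Of 6 molting genes (dpy-7 and mlt-10 among them) linked to NHR-23 that the arrays read, mlt-10 was 2-fold higher on the BPA array (1.01), the collagen gene dpy-7 on the DEHP array (1.03), and none was 2-fold lower on any.

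**Figure D5:**
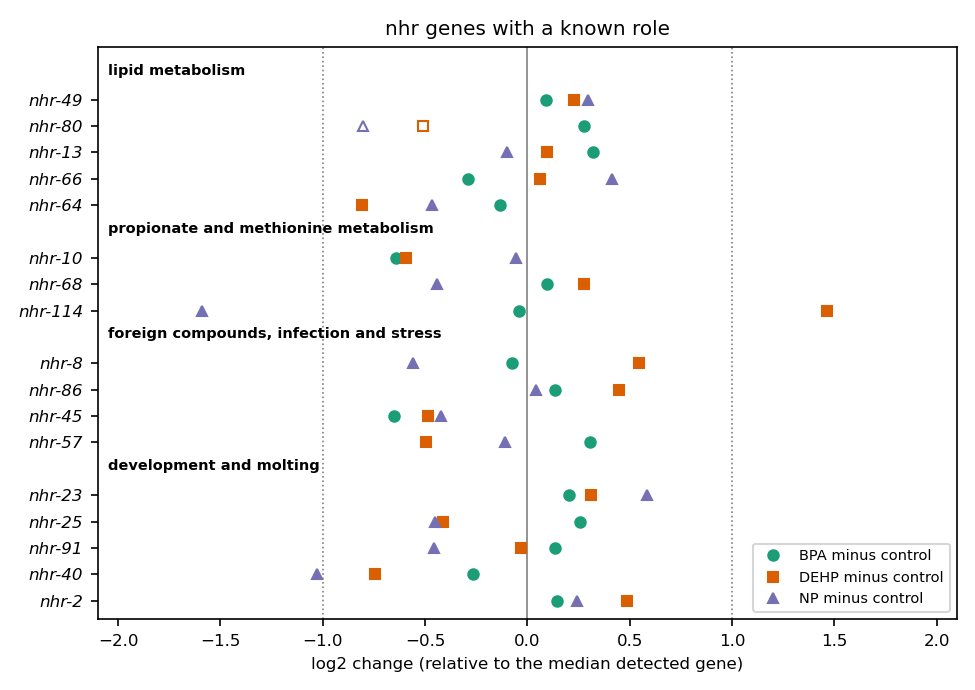
Log2 change from the control of the 17 nhr genes with a listed role that were detected on at least 1 array, with 1 marker for each of BPA, DEHP and NP (open where neither array of the comparison reached the detection level) and dotted lines at 2-fold. Only nhr-114 (DEHP and NP) and nhr-40 (NP) pass 2-fold.

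Receptors of the family that carry other names gave 2 detected genes of 5. The gene daf-12, which encodes the receptor of the dafachronic acid hormones, read 547 for BPA, 469 for DEHP and 321 for NP, against 576 for the control, with changes of -0.073, -0.30 and -0.85. The sex-determination gene sex-1 differed from the control by 0.41, 0.32 and 0.0097. The neuronal receptor genes unc-55, odr-7 and fax-1 were not detected.

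Among cofactors, mdt-15, a Mediator subunit that partners NHR-49 and other receptors, read 733, 573 and 313, against 923 for the control. Its changes were -0.33, -0.70 and -1.56, and the NP value was the only one past 2-fold among the 4 detected cofactor genes. The Mediator gene dpy-22 differed from the control by -0.41, -0.46 and -0.76, the corepressor gene gei-8 by 0.40, 0.18 and -0.056, and the acetyltransferase gene cbp-1 by -0.012, -0.15 and -0.19.

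Comparing the exposed arrays with each other leaves out the control and its unstated handling. Molar doses differed between the chemicals, and each array serves in more than 1 comparison. Between DEHP and BPA, 77 receptor genes were detected, 1 of them 2-fold higher on the DEHP array and 2 lower, where 2.11% of 8853 genes were higher and 2.82% lower. The higher gene was nhr-114 (567 against 198, 1.53) and the lower ones nhr-180 (173 against 361, -1.05) and nhr-4 (340 against 712, -1.05, from a probe set of the _s_ type). With the filter on the mean, 1 of 72 was higher and 2 lower, where 1.64% of genes were higher and 2.26% lower.

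Between the phenols NP and BPA, 11 of 84 receptor genes were 2-fold lower on the NP array and 0 higher, where 6.61% of 8944 genes were lower and 2.33% higher. With the filter on the mean, 0 of 72 were higher and 9 lower, where 1.79% of genes were higher and 5.59% lower. The 5 lowest were nhr-14 (160 against 469, -1.53), nhr-114 (68.1 against 198, -1.52), nhr-21 (169 against 473, -1.46), nhr-5 (103 against 244, -1.22) and nhr-121 (69.4 against 152, -1.11). The gene nhr-31, which is needed to form the excretory canal, was also lower (688 against 1434, -1.04), from a probe set of the _s_ type.

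Between NP and DEHP, 6 of 85 were lower on the NP array and 4 higher, where 5.37% of 8886 genes were lower and 2.09% higher. With the filter on the mean, 0 of 72 were higher and 5 lower, where 1.5% of genes were higher and 4.57% lower. The lowest gene was nhr-114 (68.1 against 567, -3.07), followed by nhr-14 (-1.34), nhr-8 (-1.12), nhr-55 (-1.097) and nhr-129 (-1.03). The NP values of nhr-114, nhr-55 and nhr-129 did not reach the detection level either. The higher genes were nhr-171 (166 against 44.2, 1.90), nhr-110 (123 against 36.7, 1.74), nhr-58 (146 against 58.0, 1.32) and nhr-109 (177 against 79.5, 1.15), each from a DEHP value under the detection level and none counted with the filter on the mean. With no replicate array, no difference between compounds can be set against the spread between worm samples.

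Agreement between probe sets gives a check of measurement within an array. In the comparisons with the control, 16 receptor genes had several detected probe sets for BPA, 18 for DEHP and 18 for NP. Their probe sets had the same sign in 10, 12 and 12 cases, and the median gap between the highest and lowest change was 0.33, 0.31 and 0.48. No gene had probe sets past 2-fold on opposite sides.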

How the data were processed

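The authors deposited linear intensity values for 22625 probe sets on each of 4 arrays, scaled to a mean of about 500 over the middle of the distribution, as the values themselves show (500.1 on each array without the lowest and highest 2%). The summary software is not given in the sources used here, and the table holds no detection calls. The labelling text names fibroblast cultures, while all other labels name worms.

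The 77 control probe sets were set aside. After log2 transformation the arrays were aligned on their medians. A floor was set at the 25th percentile of all values (28.3), and the pooled median (129) was the detection level. Changes were centred on the median detected gene, which lay at 0.0099 for BPA, 0.16 for DEHP and 0.38 for NP. Probe sets of several genes (887) or none (895) were left out. Gene names came from the platform table, updated through the WBcel235 gene table (all 254 matched). Chromosomes, gene spans and which genes are neighbours came from the same table. No coordinates are printed.

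With 1 array per group no test was made, and the number of arrays limits the precision. Genes named are those past 2-fold (up to 10 per direction against the control, 5 between exposed arrays) and listed role and pathway genes. Named outside that rule, after their values were seen, were nhr-5, nhr-21, nhr-31, nhr-58, nhr-104, nhr-119 and nhr-173 for NP and nhr-234 for BPA. The members and lists were chosen with earlier results of these data known. The scripts' counts were checked on simulated arrays carrying known shifts. The alternatives were quantile normalization, values as deposited, common median without centring, loess (span 0.3), 3 settings of filter and floor, the mean over probe sets, and leaving out _s_ and _x_ probe sets. Added after seeing the data were leaving out the NP array, removing the trend with span, and a filter on the mean over the 4 arrays. Python 3.11.15, pandas 2.3.3 and statsmodels 0.14.6 were used.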

Additional observations from a re-analysis of the deposited data

Results flagged for a closer look

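The gene nhr-114 lay on opposite sides of the control under different chemicals: it was higher under DEHP (1.46) and lower under NP (-1.59), both past 2-fold. It was the only receptor gene of which this was true in the comparisons with the control. The difference was not tested, since each chemical had 1 array. It stayed past 2-fold under every alternative that gave it a value, from 1.45 to 1.62 for DEHP and from -1.59 to -1.17 for NP.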

How the results depend on the processing

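Counts were compared within 1.5 times and medians within 0.1 log2. No named gene past 2-fold changed sign under any alternative, but of 52 such values 28 stayed past 2-fold after quantile normalization, 28 after loess, 25 without centring and 38 without the trend with span. The NP count of 15 became 6 after quantile normalization, 6 after loess, 6 without centring, 8 without the trend with span and 1 with a filter at the 75th percentile. The receptor share past 2-fold, 16.9% against 10.3% of all genes, was then 6.74% against 8.52% (quantile), 8.86% (loess) and 12.1% (no centring), 8.99% against 9.52% without the trend with span, and 5.12% against 9.11% without a filter, under the background in each. Leaving out the centring adds 0.38 to every NP change. Without a filter the 161 receptor genes never detected count too, so neither of these 2 settings decides whether the excess holds. The share stayed above the background with values as deposited (17.8% against 10.7%), the mean over probe sets (17.1% against 10.1%) and no _s_ or _x_ probe sets (19.7% against 11.6%). So it did without the floor (16.9% against 10.3%), with the filter on the mean (15.3% against 8.67%) and, over 14 receptor genes, at the 75th percentile (7.14% against 6.64%). All these shares pool both directions. Of these alternatives, only the filter on the mean had lower genes alone set against a background. The NP median became -0.19 after quantile normalization, -0.19 after loess, -0.083 without centring and -0.018 without a filter. The all-gene NP median was 0.079 after quantile normalization and 0.069 after loess, not 0. The DEHP count of 10 became 1 with the filter at the 75th percentile, or 7.69% of 13 receptor genes, against 5.59% of all genes. The DEHP median became -0.30 after quantile normalization, -0.30 after loess, -0.26 without centring, 0 without a filter, -0.19 with the filter at the 75th percentile and -0.31 with a filter on the mean over the 4 arrays. The all-gene DEHP median was 0.030 after quantile normalization and 0.027 after loess. The BPA count of 3 became 15 without a filter (8 higher, 7 lower) and 1 each with the filter at the 75th percentile, the filter on the mean and the mean over probe sets. In that order the receptor shares were 5.91%, 7.69%, 1.39% and 1.27%, against 4.30%, 1.74%, 2.00% and 2.64% of all genes. With values as deposited the BPA count was 4 (4.35%, against 2.88% of all genes), the added gene nhr-234 being higher (1.095). With values as deposited the NP count was 16, the added gene nhr-173 lying at -2.15 (31.7 against 141 in the control). With arrays aligned on the median, nhr-173 did not reach the detection level on any array. The BPA median became 0 without a filter and 0.043 over the 13 genes left at the 75th percentile, where it changed side. Without a filter, a gene under the floor on both arrays takes a fixed change, 0 for BPA and DEHP and -0.018 for NP. The receptor medians without a filter equal that change and so say nothing of the detected genes. Between NP and BPA the median of -0.31 became 0.035 without centring, where the all-gene median was 0.34. Leaving out the centring moves every change of a comparison by its all-gene median, so the distance of the receptor genes from it stays. The cause of the other shifts was not tested. All-gene medians without centring were 0.0099, 0.16 and 0.38 for BPA, DEHP and NP. Leaving out the NP array left 3 genes for BPA and 10 for DEHP. No paired analysis was possible because each group has 1 array. Signal over background limits the 161 receptor genes never detected, for which nothing can be said.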
